A study of Cicer arietinum with 4 samples.

Results

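The 197 genes described here were abundant and nearly level in ovules of chickpea (Cicer arietinum) sampled on either side of fertilization. They were chosen from a deposited table of 28783 genes by 4 criteria. The identifier begins with LOC, which is the placeholder that RefSeq gives to a gene without a symbol, and the gene spans at least 300 bases. The smallest of the 4 library values is at least 100 FPKM, and the largest exceeds the smallest by at most 25%, which is called the ratio limit below. FPKM divides the fragments of a gene by its transcript length and by the mapped fragments of the library, so that levels of different genes can be set side by side. All 4 values of each gene entered the choice. Their levels and differences are therefore given as a description, without a test.

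All samples were total RNA from ovules of the cultivar ICC4958. Closed buds gave the 2 libraries from before fertilization (pre A and pre B), and half-opened flowers gave the 2 from after it (post A and post B). The stage of the flower and fertilization differ together between the groups, and the letters carry no order. Where a pair of values is given for a group, A comes before B. Nothing in the labels says that the libraries of a group came from separate plants, so the spread between them may be technical. In RNA from whole ovules, fewer cells of a type and less RNA per cell cannot be told apart. The table used here pairs no gene with a product, so markers of the ovule were not checked.

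The ovule is the organ inside the ovary that turns into a seed once its egg cell is fertilized. Transcripts that stay level while a tissue changes are used as an internal scale in expression studies, and genes for protein synthesis, the cytoskeleton, protein turnover and central metabolism are the classical choice. Such reference genes are judged by a small spread over the samples at hand. The criteria used here ask for a high level as well. An FPKM value is relative to the rest of its library, so a gene can be level on this scale only in relation to the other transcripts.

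The members made up 28.8% of the 683 genes with a LOC identifier, the same span and at least 100 FPKM in every library. Their mean over the 4 libraries ranged from 103 FPKM to 1857 FPKM, with a median of 186 FPKM. Of the 197, 109 had a mean under 200 FPKM, 23 were over 500 FPKM and 3 over 1000 FPKM. The median member stood at 186 and 187 FPKM before fertilization and at 188 and 177 FPKM after it. Summed, the members held 9.80% of the FPKM of all genes spanning at least 300 bases in pre A and 9.92% in pre B. The corresponding shares after fertilization were 9.08% and 8.24%, so that both post-fertilization libraries lay below both earlier ones. The summed FPKM of the members itself was 53957 and 54879 before fertilization and 55643 and 51228 after it, highest in post A, so in that library the lower share came from a larger total. Of the FPKM of all listed genes, whatever their span, the members held 3.64% and 3.04% before and 2.53% and 1.43% after. The total behind these shares rose, from 1483040 and 1804430 before to 2198000 and 3574220 after. Over genes spanning at least 300 bases it was only 550503 and 552986 before and 612639 and 621551 after. RefSeq lists 195 of the members as protein-coding and 2 as long noncoding RNA, a class of transcript that is not translated.

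LOC101496454 had the highest level of all members in each library. This protein-coding gene lies on chromosome 6 from 17468197 to 17468841 and was at 1838 and 1829 FPKM before fertilization and at 2081 and 1682 FPKM after it. The pre-fertilization values lay between those of the post-fertilization libraries, and the group means were 1833 ± 6.41 and 1882 ± 283 FPKM (SD, n = 2). The post-fertilization pair therefore set its whole range.

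LOC101513092, on chromosome 1 from 18083013 to 18085454, ranked second in every library. It was at 1162 and 1231 FPKM before fertilization and at 1124 and 1073 FPKM after it. Both post-fertilization values lay below both earlier ones, with a ratio of group means of 1.09. LOC101499858, on chromosome 3 from 31583710 to 31584773, was at 1016 and 1033 FPKM before fertilization and at 1055 and 913 FPKM after it. Its groups overlapped, and post B alone was under 1000 FPKM.

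LOC101495437 (chromosome 4, 4953181 to 4954118) was at 1014 and 984 FPKM before fertilization and at 1061 and 884 FPKM after it. LOC101514704 (chromosome 6, 12975245 to 12975925) was at 926 and 982 FPKM before fertilization and at 869 and 877 FPKM after it. LOC101492631 (chromosome 3, 36110074 to 36111593) was at 919, 929 and 924 FPKM in pre A, pre B and post A, and at 817 FPKM in post B. Of these 3 genes, LOC101514704 had groups that did not overlap, and in the other two post B was the lowest library. All 6 genes described so far were among the 10 highest members in all 4 libraries.

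The next 4 genes completed the 10 with the highest mean. LOC101495311 (chromosome 3, 38620560 to 38622578) was at 771 and 792 FPKM before fertilization and at 809 and 673 FPKM after it. LOC101504525 (chromosome 1, 882840 to 883802) was at 775 and 769 FPKM before and at 786 and 674 FPKM after. In both, post A was the highest library and post B the lowest. LOC101488238 (chromosome 1, 41433417 to 41434097) was at 722 and 678 FPKM before and at 833 and 691 FPKM after. LOC101513966 (chromosome 1, 18981781 to 18982455) was at 677 and 722 FPKM before and at 821 and 691 FPKM after. In these, post A stood above the other 3 libraries, which lay close together. Post B was the lowest library in 7 of the 10 genes.

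**Figure D1:**
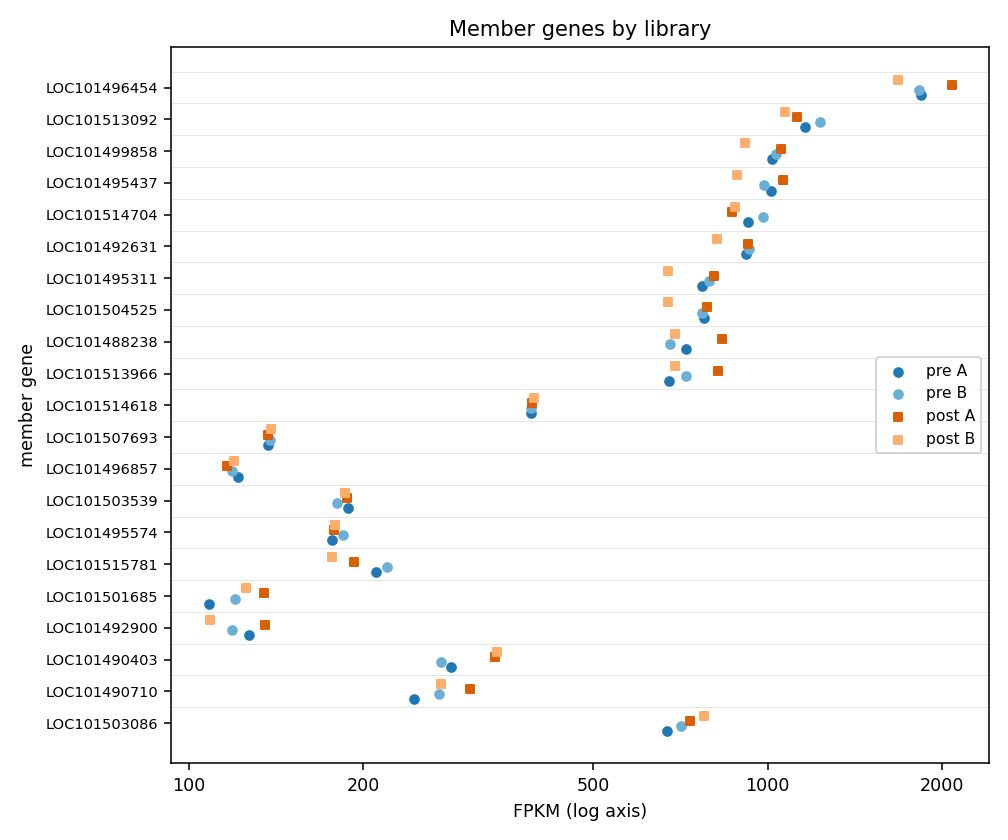
FPKM (log axis) in each library for the 10 members with the highest mean, the 5 with the smallest ratio of largest to smallest value, the 5 with the largest ratio inside the limit and LOC101503086, from top to bottom. Circles are pre-fertilization and squares post-fertilization libraries. LOC101496454 stands alone near 1857 FPKM, and the symbols of LOC101514618 and LOC101507693 nearly coincide.

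The steadiest members were not the most abundant. LOC101514618, on chromosome 7 from 1363668 to 1365935, was at 390.2 and 389.97 FPKM before fertilization and at 390.8 and 393.9 FPKM after it. Its largest value exceeded its smallest by 1.02%. LOC101507693, on chromosome 4 from 3284135 to 3287154, was at 136.8 and 138.2 FPKM before and at 137.1 and 138.4 FPKM after, and its largest value exceeded its smallest by 1.22%. The groups overlapped in LOC101507693. In LOC101514618 both post-fertilization values were higher, by less than the gap between the post-fertilization libraries.

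LOC101496857 (chromosome 4, 9665615 to 9674414) ranged from 116 FPKM in post A to 121 in pre A. LOC101503539 (chromosome 6, 10836025 to 10848498), for which RefSeq lists 4 transcripts, ranged from 180.3 FPKM in pre B to 188 in pre A. LOC101495574 (chromosome 6, 22372737 to 22375181) ranged from 176 FPKM in pre A to 185 in pre B. In the last pair the extremes both came from the pre-fertilization libraries. In all, 34 members had a largest value at most 1.1 times the smallest, 67 lay over 1.2, and the median ratio was 1.17.

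Genes on either side of the ratio limit differed little. Just inside were LOC101515781, LOC101501685, LOC101492900, LOC101490403 and LOC101490710, with ratios from 1.2476 to 1.2494. Just outside were LOC101489209, LOC105851146, LOC101494373, LOC101497286 and LOC101506767, with ratios from 1.2507 to 1.2529. Among the former, LOC101490403 (chromosome 5, 42126332 to 42127728) was at 284 and 273 FPKM before fertilization and at 338 and 340.5 FPKM after it, while LOC101492900 (chromosome 6, 10581207 to 10584304) was at 127 and 119 FPKM before and at 136 and 109 FPKM after. The ratio of the first came from the groups and that of the second from the post-fertilization pair.

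At the limit on level, LOC101508880, LOC101496460 and LOC101508471 had smallest values of 100.003, 100.38 and 100.456 FPKM. The nearest genes below it that met the other criteria were LOC101490478, LOC101493356 and LOC101500272, with smallest values of 99.1, 99.3 and 99.9 FPKM. The other 486 of the 683 LOC genes with at least 100 FPKM in every library are called abundant genes over the ratio limit. They passed the same lower limit on level, but their median level was 264 FPKM against 186 FPKM in the members. Of the 486, 260 had a ratio of at most 1.5 and 77 a ratio over 2. The members are thus the lower end of a continuous range.

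The share of genes within the ratio limit rose with level and then levelled off. Among LOC genes spanning at least 300 bases, it was 3.35% of 2356 genes with a smallest value from 1 to 3 FPKM, 11.7% of 4737 from 3 to 10, and 23.3% of 5318 from 10 to 30. It was 29.3% of 2189 genes from 30 to 100 FPKM, 31.5% of 368 from 100 to 200, 24.5% of 216 from 200 to 400 and 28.3% of 99 at 400 FPKM or more. Over all 683 genes at 100 FPKM or more it was 28.8%, close to the share of the class just below. Low values rest on fewer fragments, and the part of this in the trend was not tested.

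**Figure D2:**
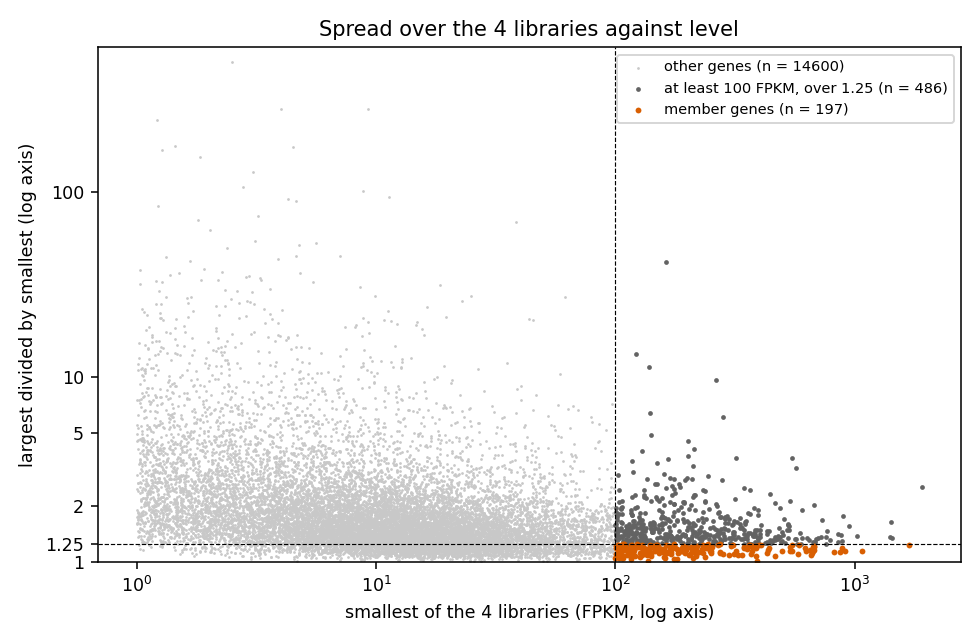
Largest value divided by smallest (log axis) against the smallest of the 4 libraries (FPKM, log axis) for 15283 LOC genes spanning at least 300 bases with at least 1 FPKM in every library. Each point is a gene, and the dashed lines are the limits on level and ratio. The 197 members fill the corner at the lower right next to the 486 abundant genes over the ratio limit.

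The word unchanged holds for these genes only as far as the ratio limit goes. In 99 of the 197 the groups overlapped. In 41 both post-fertilization values lay above both earlier ones, with ratios of group means up to 1.22, and in 57 they lay below, with pre-fertilization means up to 1.21 times those after. Among the 17849 genes that reached 1 FPKM in 2 or more libraries, the groups did not overlap in 75.7% (39.3% higher and 36.4% lower after fertilization). The criteria used the same values, so nothing is read from the difference.

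The largest rise inside the limit was that of LOC101490403, by 1.22 times, from 278 ± 8.01 to 339 ± 1.80 FPKM (SD, n = 2). The largest fall was that of LOC101497780, a gene chosen after its values were seen, on chromosome 1 from 10112838 to 10114782. It was at 175 and 177 FPKM before fertilization and at 144 and 147 FPKM after it. Its annotated stretch overlaps another listed gene, and the sources used here do not say how shared reads were counted. For both genes the gap between the groups exceeded the gap within either of them.

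In a fit of log2(FPKM + 1) across all tested genes with limma, 36.5% were called at an adjusted p threshold of 0.05 (21.0% higher and 15.5% lower after fertilization) and 0 of the 197 members. Without adjustment 1 member, LOC101497780, passed the same threshold. The criteria cap the difference between any pair of libraries, which largely fixes these counts, and nothing is read from them. The standard error of a member's log2 fold change had a median of 0.118 and ranged from 0.0936 to 0.249. Of the 486 abundant genes over the ratio limit, 158 were called, 101 higher and 57 lower.

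Within the groups, the post-fertilization pair lay farther apart than the pre-fertilization pair. The median member differed 1.04-fold between pre A and pre B, in either direction, and 1.083-fold between post A and post B, while the group means differed 1.074-fold. Post B was below post A in 153 of the 197 members, with a median log2 ratio of -0.10, whereas pre B was above pre A in 117, with a median of 0.02. Post A was the highest library for 83 members and post B the lowest for 98. Among the 486 abundant genes over the ratio limit, post B was the lowest for 261, and its median log2 ratio to post A was -0.18. Among 7507 LOC genes of the same minimum span with a smallest value from 10 to 100 FPKM, that median was -0.03. The lower values of post B were thus shared by abundant genes on either side of the ratio limit and weaker at lower levels.

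Only relative depth could be estimated, from the lowest values above 0.01 FPKM on genes of similar span. Set against pre A, it was 0.545 to 0.561 for pre B, 0.977 to 1.04 for post A and 1.06 to 1.09 for post B. The pair with the larger difference in depth was the one whose members lay closer together. Whether depth bears on the spread within a pair was not tested.

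**Figure D3:**
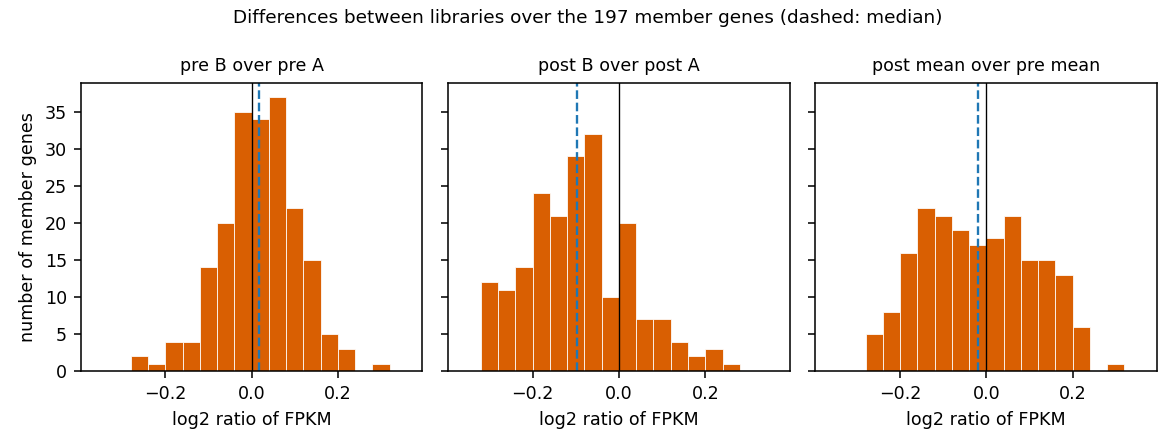
Number of members by log2 ratio of FPKM between pre B and pre A, between post B and post A, and between the group means. The dashed line is the median, at 0.02, -0.10 and -0.02, and 153 of the 197 members lie to the left of 0 in the middle panel.

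Of the 4 libraries, leaving out post B changed the number of genes most. Without it, 391 genes met the criteria on the 3 other libraries, against 241 without pre A, 252 without pre B and 264 without post A. With all 4 libraries, raising the ratio limit to 1.5 gave 457 genes and lowering it to 1.2 gave 130. A lower limit of 50 FPKM gave 466 genes and one of 200 FPKM gave 81.

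Membership also turned on the scaling between libraries. With quantile normalization, which gives every library the same distribution of values, 87 genes met the criteria and 36 of them were members, which is 18.3% of the members and 41.4% of the new set. Over all tested genes it moved the median log2 fold change by -0.17, to -0.15, and over the members it took the median to -0.28, which is a difference of -0.13 from all tested genes. Under it, 2976 of 17919 tested genes were called higher after fertilization and 3968 lower. Of these calls 42.9% were higher, against 57.6% with the authors' values. Among the 197 members 16 were called, all 16 lower. When libraries were scaled to the same sum over genes spanning at least 300 bases, 152 genes met the criteria and 106 of them were members. The median log2 ratio of the members' group means was then -0.18, with 177 of the 197 lower after fertilization and 20 higher, against -0.02, 108 and 89 with the authors' values. How many members lay higher or lower after fertilization thus depended on the scaling. Median-of-ratios scaling, with factors from 0.99978 to 1.0044, left 194. That scaling hardly changes the deposited values and is no separate check.

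**Figure D4:**
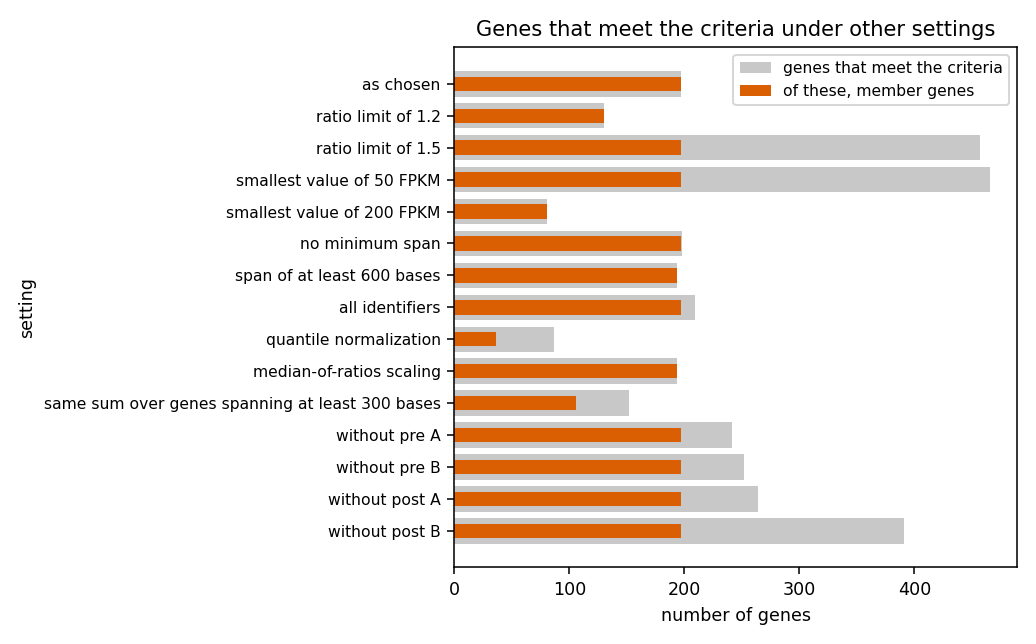
Number of genes that meet the criteria under each setting (grey bars) and how many of them are among the 197 members (orange bars). Quantile normalization keeps 36 members, scaling to the same sum keeps 106, and leaving out post B raises the number of genes to 391.

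Gene span, which entered the criteria only as a minimum, differed between the members and the abundant genes over the limit, which were not matched for level. The members had a median span of 3011 bases, with quartiles of 1964 and 4222, against 2294 bases with quartiles of 1611 and 3452. All tested LOC genes spanning at least 300 bases had a median of 3915. Members made up 25.9% of the 85 abundant genes under 1000 bases, 19.7% of the 152 from 1000 to under 2000, 29.3% of the 300 from 2000 to under 4000 and 39.0% of the 146 at 4000 bases or more. In the same order, the median level of the abundant genes in these classes was 279, 342, 242 and 165 FPKM. The shortest member was LOC101494979 at 407 bases and the longest LOC101503002 at 37340 bases, both named after their values were seen. LOC101503002 is 1 of 9 members (4.57%) whose annotated stretch overlaps another listed gene. That share was 6.61% among all tested LOC genes of the same minimum span.

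The order did not hold at every level. With a smallest value from 100 to 200 FPKM the median span was 3362 bases in members and 2822 in the others, and from 200 to 400 FPKM it was 2697 against 2105. At 400 FPKM or more it turned, with 1442 bases in 28 members and 1935 in 71 others. Span includes introns, and transcript lengths are not in the table used here. RefSeq lists more than 1 transcript for 17.8% of the members, 12.7% of the abundant genes over the limit that matched it and 31.9% of all tested genes of that kind. Here too the order did not hold throughout. The share was 19.2% in the abundant genes with a ratio over 2. At 400 FPKM or more it was 3.57% of the members and 5.63% of the others.

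**Figure D5:**
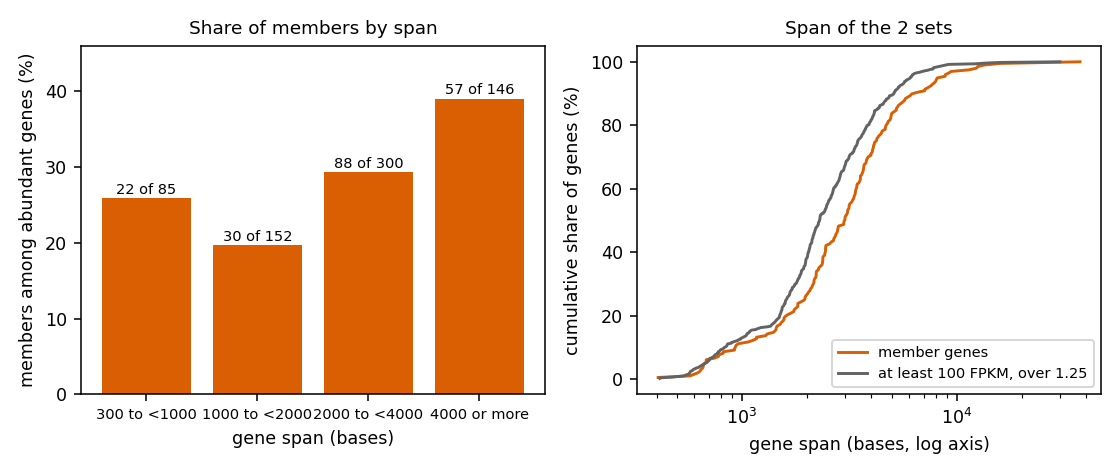
Left, share of members among abundant genes in 4 classes of gene span, with counts above the bars. Right, cumulative share of genes (%) by span (bases, log axis). Over most of its course the curve of the members runs to the right of that of the abundant genes over the ratio limit.

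RefSeq carries a synonym for a single member. LOC101503086, on chromosome 5 from 47067346 to 47070356, has the synonym actin, the protein of the thin filaments of the cytoskeleton. It was at 671 and 708 FPKM before fertilization and at 735 and 775 FPKM after it, so that both post-fertilization values lay above both earlier ones by a small margin. The gene listed under the symbol ACTIN was at 47.7 and 66.3 FPKM before fertilization and at 201 and 281 FPKM after it. At its highest, ACTIN stayed below the lowest value of LOC101503086. ACT1, which carries the same synonym in RefSeq, was at 0 FPKM in all 4 libraries. Actin genes form a family of similar copies, and whether they share reads was not analysed here.

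The noncoding members were LOC101506923 and LOC101514211, named after their values were seen. LOC101506923 (chromosome 8, 5077359 to 5079482) was at 325 and 303 FPKM before fertilization and at 297 and 311 FPKM after it. LOC101514211 (chromosome 2, 30965426 to 30966024) was at 287 and 254 FPKM before and at 246 and 239 FPKM after. The groups overlapped in the first and not in the second, which was lower after fertilization.

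Genes with a symbol were left out by the first criterion, and 12 of the 27 that were abundant and long enough met the others. Genes often used as references were found on both sides of the ratio limit. UBQ10, a polyubiquitin gene of protein turnover, was at 1666 and 1817 FPKM before fertilization and at 1779.3 and 1779.0 FPKM after it. EF1A, which brings aminoacyl-tRNA to the ribosome, was at 1555 and 1709 FPKM before and at 1726 and 1408 FPKM after, and thus had post B lowest like most of the top members. GAPDH, a glycolytic enzyme, was at 881 and 1001 FPKM before and at 1018 and 1032 FPKM after. The ribosomal protein gene RPL18 had both post-fertilization values below both earlier ones, and its largest value exceeded its smallest by 14.2%. Also among them were 1433, ARF14, CAM, EREBP, GDI, PAD1 and PPI. These genes were named after their values were seen, and the other 15 exceeded the ratio limit. Of those 15, UBQ5, another ubiquitin gene, and IF4A, a translation initiation factor, each had a largest value 34.9% above the smallest. The ribosomal protein genes RPL24 and RS3A were 32.3% and 43.6% apart in the same sense, the tubulin gene TUBB 26.4% and the histone gene HIS2A 87.3%.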

How the data were processed

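The values are FPKM as deposited by the authors, in 1 table of 4 libraries. Per the submitters' processing notes the tools were Cufflinks, Cuffdiff, HISAT2, fastp and FastQC, with no order or role given. The sources used here do not state versions, genome build, annotation or scaling between libraries. Columns could be assigned to groups, not to single samples. Members had a largest value of at most 1.25 times the smallest. Coordinates are those of the deposited table, and its build is not stated. A RefSeq gene table of another assembly (Cicar.CDCFrontier_v2.0), matched on gene number, gave biotypes, transcripts, synonyms and, by majority, chromosome numbers for 25491 genes, among them all 197 members.

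The 17849 genes that reached 1 FPKM in 2 or more libraries were tested on log2(FPKM + 1) by limma (version 3.58.1, R version 4.3.3) with group as the only term, a variance trend and two-sided p-values adjusted after Benjamini and Hochberg over all tested genes. The code was tested on simulated data. Folds are ratios of mean FPKM. Relative depth is the inverse of the median of the 20 lowest values above 0.01 FPKM among genes of similar span, set against pre A. Absolute depth is unknown, so no counting interval is given. Figures were drawn with matplotlib 3.10.9.

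The members and lists were chosen with earlier results of these data known. Named were the 10 members with the highest mean, the 5 with the smallest ratio, the 5 on each side of the ratio limit, the 3 on each side of the level limit and members with a synonym. Product lists, promoter motifs and protein similarity need sequences or product names and were not analysed here.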

Additional observations from a re-analysis of the deposited data

How the results depend on the processing

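The number of genes that met the criteria was 197 and became 130 with a ratio limit of 1.2, 457 with 1.5, 466 with a smallest value of 50 FPKM, 81 with 200 FPKM and 87 with quantile normalization. It ranged from 241 to 391 when a library was left out, where the criteria rest on 3 values and are easier to meet. The number of members called was 0 with limma in all settings but quantile normalization, where it was 16 and the median log2 fold change of the members was -0.277 against -0.0218. Under quantile normalization 2976 of 17919 tested genes were called higher and 3968 lower. The cause of the shift was not tested. With the authors' values, 3754 were called higher and 2768 lower over all tested genes. With a library left out, calls higher ranged from 579 to 3828 and calls lower from 74 to 3576, and the low ends came without pre B. Without pre A 677 were higher and 99 lower, and both fits take their spread from the post-fertilization pair. With the column ending as a replicate block, 3395 were called higher, 2231 lower and 0 members. Deviations of libraries with the same ending had a correlation of 0.0215 across genes. With 2 libraries a group, that value cannot show whether libraries with the same ending share a batch or plant. The median span of the members stayed above that of abundant genes over the limit with a ratio limit of 1.5 (2471 against 2304.5 bases), with 50 FPKM and with quantile normalization. The promoter motifs listed as an alternative were not run. The ratio limit caps differences within and between groups alike, so their similar size in the members follows from the choice. Depth is known only in relative terms, and 2 libraries a group limit what can be said of differences this small.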

Other observations

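Members were found on every chromosome. Of the abundant genes, they made up 40.2% on chromosome 4 (37 of 92) and 19.2% on chromosome 7 (14 of 73), and between 25.6% and 31.1% on the other chromosomes and on unplaced sequences.

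A member was next to 2.03% of the members, 2.06% of the abundant genes over the ratio limit and 1.63% of all tested LOC genes of the same minimum span. In the deposited coordinates 2 pairs were adjacent with no listed gene between them. LOC101508045 and LOC101507715 lie on chromosome 4 with a gap of 2896 bases. The former was at 414 and 404 FPKM before fertilization and at 371 and 345 FPKM after it, and the latter at 489.9 and 479 FPKM before and at 505 and 466 FPKM after. LOC101494652 and LOC101494971 lie on chromosome 8 with a gap of 10538 bases. The pairs were named after their values were seen. An abundant gene was next to 6.60% of the members (13 genes) and to 10.1% of the abundant genes over the ratio limit. The share was 5.39% for all tested LOC genes of the same minimum span.

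Genes next to members were within the ratio limit about as often as other genes. Of 136 neighbours with 10 FPKM or more in each library that were not themselves abundant, 25.7% were within the ratio limit. The corresponding share was 22.5% of 325 neighbours of abundant genes over the limit and 25.1% of all 7597 genes of that kind.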
